A study of Mus musculus with 12 samples.

Results

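The RNA of the *Isg15* conjugation pathway was followed in B16-F10 mouse melanoma cells through 8 genes, taken by name from the 23022 genes of the deposited matrix. They are the modifier *Isg15*, the E1 *Uba7*, the E2 *Ube2l6*, the E3 *Herc6*, the protease *Usp18*, the TRIM ligases *Trim25* and *Trim21*, and *Ube2l3*, an E2 closely related to *Ube2l6*. Each name matched 1 gene of the matrix. For the response to IFNγ and the difference between knockout and control cells, 7 of the 8 could be tested, among 11663 tested genes.

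ISG15 is a ubiquitin-like protein that is attached to other proteins in the same relay as ubiquitin: an E1 enzyme activates it, an E2 enzyme carries it and an E3 ligase places it on a target. A dedicated protease takes it off again. Interferons induce the modifier and most of its enzymes, and the pathway is best known for its part in the antiviral state, while TRIM25 and TRIM21 are interferon-induced ubiquitin ligases that act beside it in innate immunity.

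The study asked how loss of the splicing regulators MBNL1 and MBNL2 alters the response of melanoma cells to IFNγ. All 12 libraries came from B16-F10 cells of a single Cas9-expressing clone that had received a lentiviral paired guide RNA and puromycin selection. The 4 groups, with 3 libraries each, were control cells left untreated (NTC untreated), control cells given IFNγ (NTC IFNγ), cells with guides against *Mbnl1* and *Mbnl2* left untreated (DKO untreated) and the same knockout cells given IFNγ (DKO IFNγ). IFNγ was given at 1 ng/mL for 24 h, a dose and time taken from the paper and not from the sample labels. The sample labels call the control "no template", whereas the study describes a non-targeting guide. The DKO cells were a polyclonal population in which the study still found some protein, so they are not a clean null. Nothing in the sources used here states whether the 3 libraries of a group came from separate cultures, and p-values therefore measure the spread between these libraries, which may be technical.

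Values are TPM, which are corrected for transcript length, so that levels of different genes can be set side by side. Read depth cannot be read from them. In every column each value was a whole multiple of 1 small step, within 0.001 of a step, as TPM with 2 decimals would be after multiplication by 1 factor per library. The factor ran from 0.922 to 0.957 in NTC libraries and from 0.879 to 0.904 in DKO libraries. Its origin is not stated. The listed genes summed to between 805782 and 874612 TPM per library as deposited, and to between 912468 and 917564 TPM without the factor. Since the factor was lower in every DKO library than in every NTC library, small differences between the genotypes depend on whether it is kept. Members whose call or direction changed without the factor are named with their values.

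Both targeted genes were lower in DKO libraries. *Mbnl1* stood at 56.8, 57.0 and 55.6 TPM in NTC untreated, 60.5, 63.9 and 63.3 TPM in NTC IFNγ, 41.3, 41.1 and 44.0 TPM in DKO untreated, and 44.9, 42.7 and 47.5 TPM in DKO IFNγ. *Mbnl2* had group means of 103 and 106 TPM in untreated and treated NTC cells and of 89.1 and 90.3 TPM in the matching DKO cells. For both genes each DKO library was below each NTC library with the same treatment, so no library went against its label. The line also carried its melanocytic markers: the 7 genes *Mitf*, *Sox10*, *Tyr*, *Tyrp1*, *Dct*, *Pmel* and *Mlana* summed to between 11124 and 18642 TPM per library, with *Tyrp1* the most abundant at a mean of 5245 TPM. This sum averaged 16997 and 18276 TPM in untreated and treated NTC cells and 11284 and 12376 TPM in DKO cells, and its part in the differences between genotypes was not tested. Of 6 leukocyte markers 5 were listed, with *Ptprc* and *Cd3e* at 0 in all libraries and a sum of at most 1.87 TPM, led by *Lyz2*. The leukocyte sum averaged 0.344 and 1.45 TPM in untreated and treated NTC cells and 0.50 and 0.385 TPM in DKO cells, with *Lyz2* at 0.344, 0.889, 0.408 and 0.385 TPM, and its part in the NTC response was not tested. The 3 fibroblast markers, led by *Col1a1* and with *Dcn* at 0, summed to at most 2.07 TPM. The 2 endothelial markers, led by *Pecam1* and with *Cdh5* at 0, summed to at most 0.914 TPM, and the keratinocyte markers *Krt5* and *Krt14* were listed at 0.

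Differences were tested with limma on log2(TPM + 1) over the 11663 genes that reached 1 TPM in 3 or more libraries, with Benjamini-Hochberg adjustment across all of these and a threshold of 0.05. A fold change on this scale understates the change of a gene near 1 TPM. Of the 8 members 7 were tested, each with at least 1 TPM in all 12 libraries. *Usp18* reached 1 TPM in 2 libraries and was not tested. In a bulk culture, fewer cells that respond and less RNA per cell cannot be told apart.

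*Isg15*, the modifier itself, lies on chromosome 4 of GRCm38 (chr4:156199424-156200818, minus strand). It stood at 3.42, 4.42 and 3.67 TPM in NTC untreated, 13.2, 12.2 and 9.08 TPM in NTC IFNγ, 6.07, 7.37 and 5.35 TPM in DKO untreated, and 11.7, 13.3 and 11.6 TPM in DKO IFNγ. Every treated library was above every untreated library of either genotype, and the untreated DKO libraries all lay above the untreated NTC libraries, while the treated groups overlapped. NTC IFNγ replicate 3 was the lowest of the treated ones.

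IFNγ raised *Isg15* in NTC cells by a log2 fold change of 1.36 (SE 0.132, limma adjusted p = 2.74e-05, higher in 3 of 3 libraries). In DKO cells the rise was 0.87 (SE 0.132, limma adjusted p = 0.00306, 3 of 3 libraries). As ratios of mean levels these were 2.99-fold and 1.95-fold. The difference between the responses was −0.49, with a 95% interval from −0.89 to −0.08, and did not pass the threshold over all genes (limma adjusted p = 0.409, unadjusted p = 0.0213). Without IFNγ, *Isg15* was higher in DKO than in NTC cells by 0.58 (SE 0.132, limma adjusted p = 0.00365, 3 of 3 libraries). With IFNγ the difference was 0.10, within the spread of the libraries (95% interval −0.19 to 0.38, limma adjusted p = 0.583). Thus the modifier started from 6.26 ± 1.02 TPM (SD, n = 3) in DKO cells against 3.84 ± 0.523 TPM in NTC cells, and ended at 12.2 ± 0.934 TPM against 11.5 ± 2.13 TPM.

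**Figure D1:**
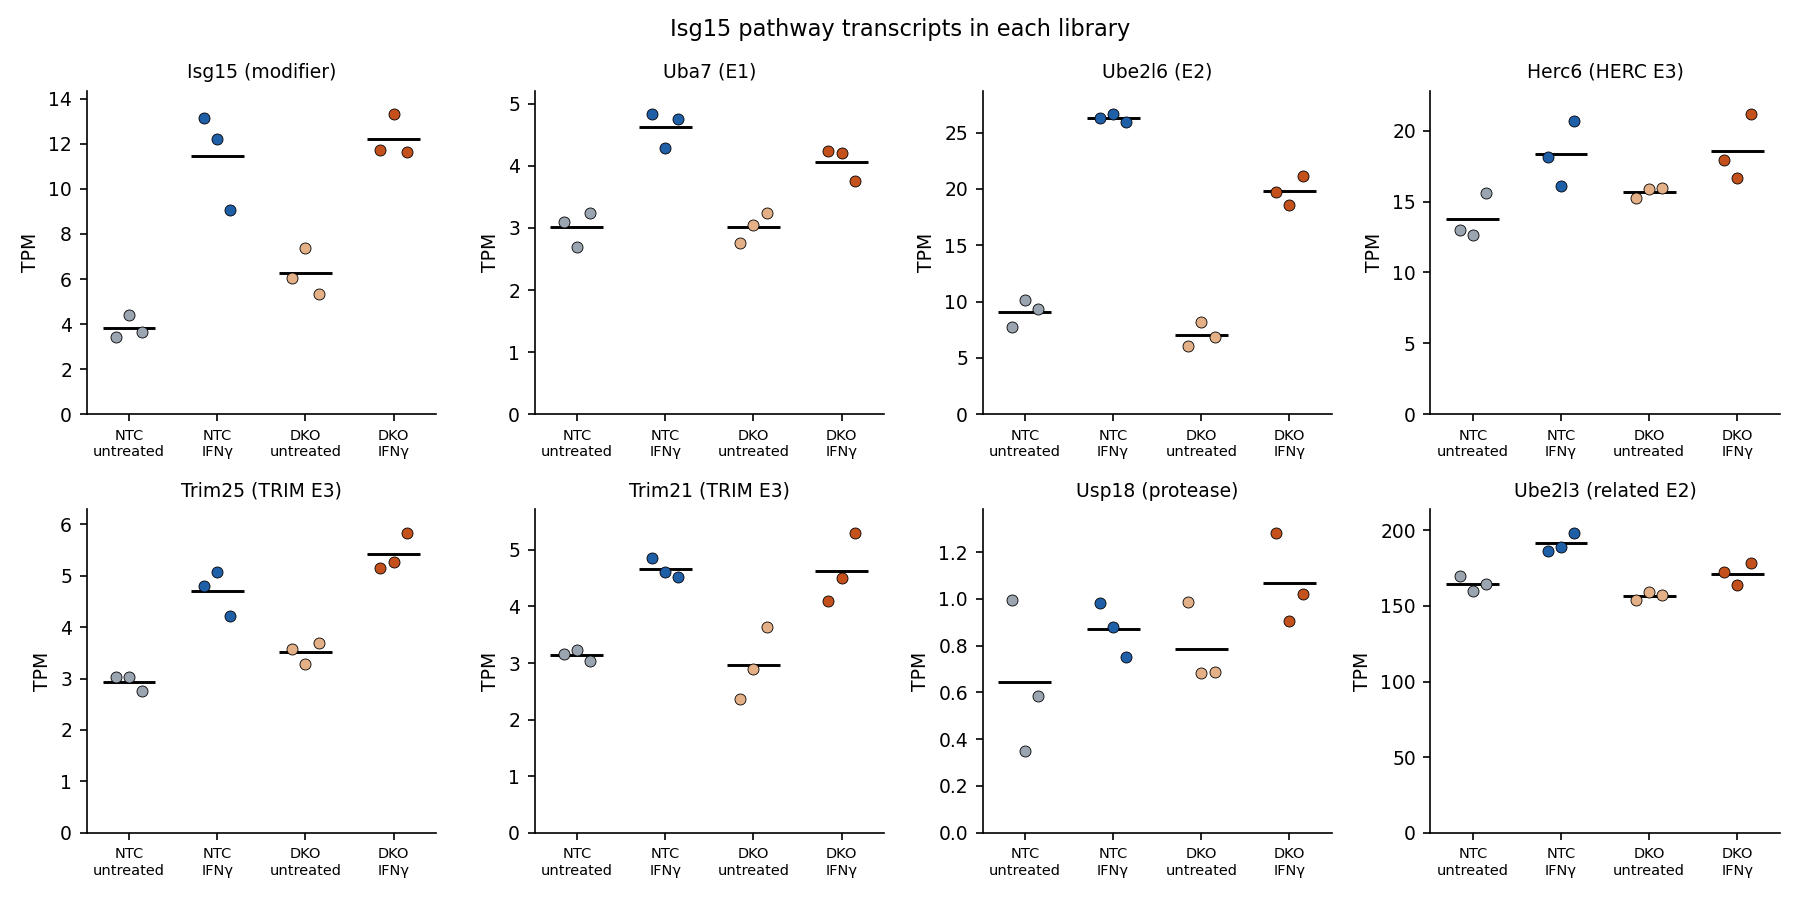
Level of each of the 8 genes in TPM (vertical axes, from 0) in the 12 libraries, grouped by genotype and treatment, with each point a library and each bar the mean of 3. The scales differ between panels: *Ube2l3* lies above 150 TPM in all libraries and *Usp18* at or below 1.28 TPM, and for *Isg15* and *Ube2l6* all treated libraries lie above all untreated ones.

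The promoters of the members were compared because most of them moved in the same direction. RefSeq promoter windows on GRCm38.p6, from 250 bases before to 50 bases after the annotated start, were found for 7 of the 8 members and not for *Usp18*. Both strands were searched for the core of the interferon-stimulated response element, GAAANNGAAA (TTTCNNTTTC on the other strand), and for the gamma-activated sequence, TTCNNNGAA, which reads the same on both strands. The first was present in 3.44% of 32851 windows of 300 bases and the second in 8.30%. Among the members the first matched *Isg15* and *Trim21*, and the second matched none. The stretches shown are those of the modifier and the E2, which had the largest responses, of *Herc6*, the ligase with the smallest, and the 30 bases around the matches of *Trim21*, which lie after its annotated start. Capitals mark every base that belongs to a match, and each sequence is given 5′ to 3′ on the strand of its gene. *Isg15* covers chr4:156200819-156200968 on the minus strand, *Ube2l6* chr2:84798678-84798827 on the plus strand, *Herc6* chr6:57580842-57580991 on the plus strand and *Trim21* chr7:102565447-102565476 on the minus strand.
Isg15: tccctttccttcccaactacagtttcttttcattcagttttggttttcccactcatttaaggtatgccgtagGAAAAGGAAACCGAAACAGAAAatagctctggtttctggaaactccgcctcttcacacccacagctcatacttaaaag
Ube2l6: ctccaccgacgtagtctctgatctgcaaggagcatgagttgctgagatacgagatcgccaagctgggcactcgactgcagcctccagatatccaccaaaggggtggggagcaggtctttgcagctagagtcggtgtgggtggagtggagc
Herc6: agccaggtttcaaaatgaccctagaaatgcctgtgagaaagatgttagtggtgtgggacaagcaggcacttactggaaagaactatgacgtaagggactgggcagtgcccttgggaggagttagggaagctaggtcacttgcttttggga
Trim21: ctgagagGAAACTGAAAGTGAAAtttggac

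In *Isg15* there were 3 overlapping matches between 78 and 57 bases before the start. In *Trim21* there were 2, between 14 and 29 bases after it. *Uba7*, *Ube2l6*, *Herc6*, *Trim25* and *Ube2l3* had neither run of letters in these windows, which says nothing about other forms of the element or about sites outside them.

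*Uba7* encodes the E1 that activates ISG15 (chr9:107975505-107984060, plus strand). Its levels were 3.10, 2.70 and 3.24 TPM in NTC untreated, 4.83, 4.29 and 4.75 TPM in NTC IFNγ, 2.76, 3.05 and 3.25 TPM in DKO untreated, and 4.23, 4.20 and 3.76 TPM in DKO IFNγ. Treated libraries lay above untreated ones in both genotypes, the untreated groups overlapped almost entirely, and each treated DKO library was below each treated NTC library. With the library factor divided out, the treated groups overlapped. The response was a log2 fold change of 0.49 in NTC cells (SE 0.0902, limma adjusted p = 0.00789, 3 of 3 libraries). In DKO cells it was 0.34 and missed the threshold (SE 0.0902, limma adjusted p = 0.162), although all 3 treated libraries were higher. The difference between the responses was −0.15 (95% interval −0.43 to 0.12, limma adjusted p = 0.634), so the data do not separate them. Between genotypes the log2 difference was 0.00 without IFNγ and −0.15 with it (95% interval −0.34 to 0.04, limma adjusted p = 0.197). The latter passed the threshold only with the trend with GC content and length taken out (−0.24, limma adjusted p = 0.0409, range over the alternatives 0.0409 to 0.505), an alternative chosen after the data were seen. Over the 22 alternatives the treated estimate ran from −0.24 to −0.080.

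The E2 *Ube2l6*, which receives ISG15 from UBA7 (chr2:84798828-84810335, plus strand), had the largest response of the 7 tested members in DKO cells, on the log2(TPM + 1) scale and as a ratio of means (2.81-fold). In NTC cells its order against *Isg15* was not resolved, since the ratios of means were 2.89 for *Ube2l6* and 2.99 for *Isg15*, and without NTC IFNγ replicate 3 the log2 fold change of *Isg15* was the larger one. It was measured at 7.77, 10.1 and 9.33 TPM in NTC untreated, 26.3, 26.6 and 25.9 TPM in NTC IFNγ, 6.07, 8.17 and 6.87 TPM in DKO untreated, and 19.7, 18.6 and 21.1 TPM in DKO IFNγ. The treated NTC libraries were close to each other and stood above the treated DKO libraries, which in turn stood far above all untreated libraries. The untreated groups overlapped in 1 DKO library, replicate 2.

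*Ube2l6* rose by 1.44 in NTC cells (SE 0.0992, limma adjusted p = 5.95e-07) and by 1.38 in DKO cells (SE 0.0992, limma adjusted p = 1.17e-06), in 3 of 3 libraries each. The responses differed by −0.06 (95% interval −0.37 to 0.24, limma adjusted p = 0.881). Its level, in contrast, was lower in DKO cells under both conditions. Without IFNγ the log2 difference was −0.33 (SE 0.0992, limma adjusted p = 0.0196, 2 of 3 libraries below all NTC libraries), and with IFNγ −0.39 (SE 0.0992, limma adjusted p = 0.00630, 3 of 3 libraries). The untreated call was lost under 5 of 22 alternatives, with adjusted p between 0.00522 and 0.0902 over all of them: with only the untreated libraries fitted (limma adjusted p = 0.0588), and without NTC untreated replicate 2 (0.0855) or 3 (0.0611) or DKO untreated replicate 1 (0.0902) or 3 (0.0553). The treated call held under all 22.

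**Figure D2:**
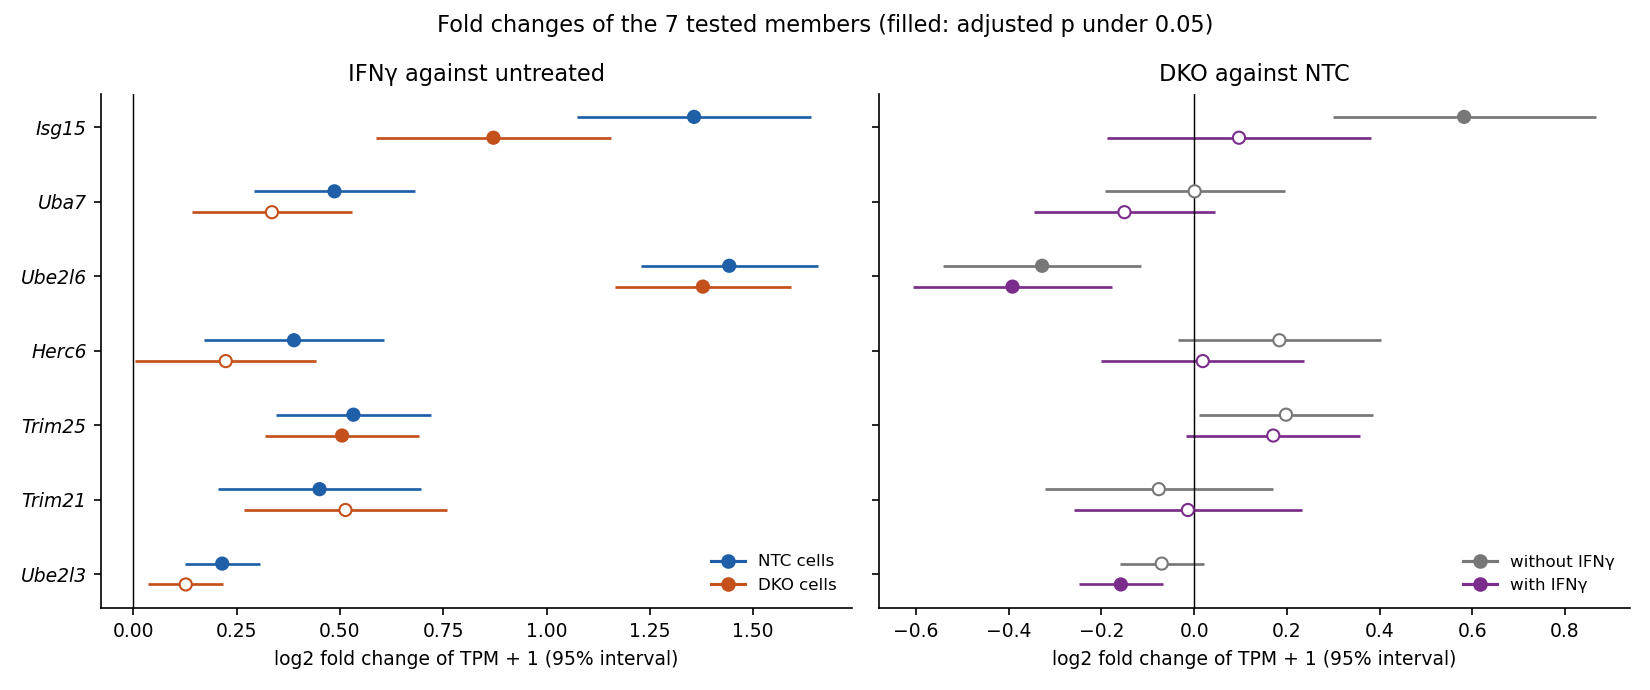
Log2 fold changes of TPM + 1 (horizontal axes) with their 95% intervals for the 7 tested members, for IFNγ against untreated cells in each genotype (left) and for DKO against NTC cells under each treatment (right). Filled points passed a limma adjusted p of 0.05. For the IFNγ response these are all 7 in NTC cells, where 12.1% of all tested genes passed. In DKO cells they are *Isg15*, *Ube2l6* and *Trim25*, where 0.780% passed. Between genotypes they are *Isg15* and *Ube2l6* without IFNγ (36.4% of all tested genes) and *Ube2l6* and *Ube2l3* with it (43.3%).

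*Ube2l3* (chr16:17152013-17202649, minus strand) encodes a widely expressed E2 that serves ubiquitin ligases and is not known as an interferon target, so it was set beside *Ube2l6* as its uninduced relative. It was by far the most abundant of the 8 genes, at 170, 160 and 165 TPM in NTC untreated, 187, 189 and 198 TPM in NTC IFNγ, 154, 159 and 157 TPM in DKO untreated, and 172, 164 and 179 TPM in DKO IFNγ. Treated libraries were above untreated ones in both genotypes, by margins that were small beside the level, and each DKO library was below each NTC library with the same treatment. With the library factor divided out, DKO and NTC libraries overlapped under both treatments.

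The name "uninduced" was not borne out in NTC cells: *Ube2l3* rose by a log2 fold change of 0.22 (SE 0.0421, limma adjusted p = 0.0107, 3 of 3 libraries), or 1.16-fold in mean level. The call was lost without NTC IFNγ replicate 3 (0.19, limma adjusted p = 0.0509), and also with the trend with GC content and length taken out and a replicate block added (0.12, limma adjusted p = 0.0612), against a range over the 22 alternatives of 0.00439 to 0.0612. In DKO cells the estimate was 0.13 (limma adjusted p = 0.316), and the responses differed by −0.09 (95% interval −0.22 to 0.04, limma adjusted p = 0.556). Without IFNγ the log2 difference between DKO and NTC cells was −0.07 and missed the threshold (limma adjusted p = 0.218). Over the 22 alternatives this untreated estimate ran from −0.091 to −0.020. With IFNγ *Ube2l3* was lower in DKO than in NTC cells by −0.16 (SE 0.0421, limma adjusted p = 0.00840). This call was lost under 4 of 22 alternatives, with adjusted p between 0.00395 and 0.145: at the same total (−0.07, limma adjusted p = 0.144), without the library factor (−0.07, 0.145) and with the trend with GC content and length taken out, without or with a replicate block (−0.06, 0.115 and 0.142).

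Within a library, the ratio of both E2 transcripts does not depend on any scaling of that library. *Ube2l6* amounted to 4.58, 6.34 and 5.67% of *Ube2l3* in NTC untreated, 14.1, 14.1 and 13.1% in NTC IFNγ, 3.93, 5.14 and 4.37% in DKO untreated, and 11.5, 11.3 and 11.8% in DKO IFNγ. The ratio was higher in every treated than in every untreated library, and lower in every treated DKO than in every treated NTC library, whereas the untreated groups overlapped. The log2 ratio was higher with IFNγ by 1.32 in NTC and by 1.37 in DKO cells, and between genotypes it differed by −0.30 without IFNγ and by −0.25 with it. The untreated difference ran from −0.43 without NTC untreated replicate 1 to −0.19 without NTC untreated replicate 2, and the treated one from −0.29 without NTC IFNγ replicate 3 to −0.23 without NTC IFNγ replicate 1. In the exact two-sided permutation test both responses and the treated difference had p = 0.1, the smallest that 3 against 3 libraries allow, and the untreated difference had an exact p = 0.2. After Benjamini-Hochberg adjustment over the 4 comparisons the exact p-values were 0.133 for the first 3 and 0.2 for the last. With IFNγ the transcript of *Ube2l6* thus stood at 13.7 ± 0.579% (SD, n = 3) of its relative in NTC cells and at 11.5 ± 0.251% in DKO cells.

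**Figure D3:**
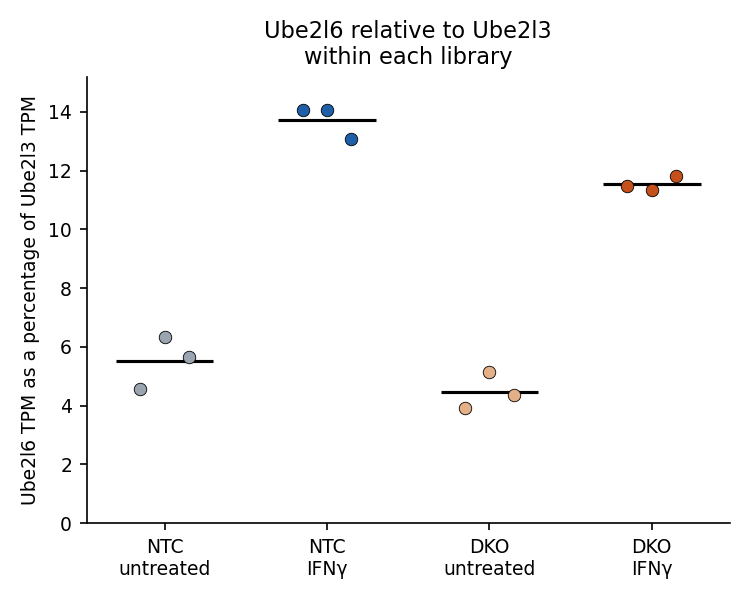
*Ube2l6* TPM as a percentage of *Ube2l3* TPM (vertical axis, from 0) in each of the 12 libraries, with bars at the means of 3. The treated libraries lie between 11.3 and 14.1% and the untreated ones between 3.93 and 6.34%, and the treated DKO libraries lie below the treated NTC libraries.

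Of the ligases, *Herc6* (chr6:57581000-57664632, plus strand) encodes the main E3 for ISG15 in mice. Its levels were 13.0, 12.7 and 15.6 TPM in NTC untreated, 18.2, 16.1 and 20.7 TPM in NTC IFNγ, 15.2, 15.9 and 15.96 TPM in DKO untreated, and 17.9, 16.7 and 21.1 TPM in DKO IFNγ. Treated libraries exceeded untreated ones within each genotype, though in places by less than the distance between replicates, and the genotypes overlapped under both treatments. Already untreated, it was the second most abundant of the 8 transcripts in both genotypes. It rose by 0.39 in NTC cells (SE 0.102, limma adjusted p = 0.0289, 3 of 3 libraries), a call lost under 7 of 22 alternatives, with adjusted p between 0.0115 and 0.113. They were no filter on low values (limma adjusted p = 0.0549), a prior variance without a trend (0.0521), the trend with GC content and length taken out without or with a replicate block (0.103 and 0.0612), and the fits without NTC untreated replicate 1 (0.0723) or 2 (0.106) or NTC IFNγ replicate 3 (0.113). In DKO cells the estimate was 0.22 (SE 0.102, limma adjusted p = 0.501), and the responses differed by −0.17 (95% interval −0.47 to 0.14, limma adjusted p = 0.648). The DKO estimate ran from 0.13 without DKO IFNγ replicate 3 to 0.30 without DKO IFNγ replicate 2, and the difference from −0.26 without DKO IFNγ replicate 3 to −0.08 without NTC IFNγ replicate 3. Between genotypes the log2 difference was 0.18 without IFNγ (limma adjusted p = 0.178) and 0.02 with it (limma adjusted p = 0.898), neither past the threshold. The untreated one passed only with the trend with GC content and length taken out and a replicate block added (0.21, limma adjusted p = 0.0341, range over the alternatives 0.0341 to 0.410), an alternative chosen after the data were seen.

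*Trim25* encodes a ubiquitin ligase best known for acting on the RNA sensor RIG-I (chr11:88999376-89020293, plus strand). It stood at 3.02, 3.03 and 2.75 TPM in NTC untreated, 4.81, 5.08 and 4.22 TPM in NTC IFNγ, 3.57, 3.28 and 3.70 TPM in DKO untreated, and 5.15, 5.26 and 5.83 TPM in DKO IFNγ. The 4 groups did not overlap at all, and they were ordered from NTC untreated through DKO untreated and NTC IFNγ to DKO IFNγ. *Trim25* rose by 0.53 in NTC cells (SE 0.0869, limma adjusted p = 0.00326) and by 0.51 in DKO cells (SE 0.0869, limma adjusted p = 0.00950), in 3 of 3 libraries each. The DKO call was lost without DKO untreated replicate 2 (0.47, limma adjusted p = 0.0695) or DKO IFNγ replicate 3 (0.46, limma adjusted p = 0.0565), against a range over the alternatives of 0.00310 to 0.0695. The responses differed by −0.03 (95% interval −0.29 to 0.24, limma adjusted p = 0.944). Its higher level in DKO cells, 0.20 without IFNγ (limma adjusted p = 0.0923) and 0.17 with it (limma adjusted p = 0.129), missed the threshold as deposited. Both passed without the library factor, at 0.24 (limma adjusted p = 0.0452, range over the alternatives 0.0419 to 0.239) and 0.25 (limma adjusted p = 0.0347, range 0.0347 to 0.385).

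*Trim21* encodes a ubiquitin ligase that also binds antibody in the cytosol (chr7:102557921-102565486, minus strand). Its levels were 3.17, 3.24 and 3.03 TPM in NTC untreated, 4.86, 4.61 and 4.53 TPM in NTC IFNγ, 2.37, 2.89 and 3.63 TPM in DKO untreated, and 4.09, 4.51 and 5.30 TPM in DKO IFNγ. Libraries of the NTC groups were close together, while those of the DKO groups were spread widely around similar means. It rose by 0.45 in NTC cells (SE 0.114, limma adjusted p = 0.0262, 3 of 3 libraries), a call lost under 7 of 22 alternatives with adjusted p between 0.0166 and 0.0831. These were the trend with GC content and length taken out, with and without the block (limma adjusted p = 0.0786 and 0.0662), and the fits without NTC untreated replicate 1 (0.0514), 2 (0.0711) or 3 (0.0831) or NTC IFNγ replicate 2 (0.0741) or 3 (0.0704). In DKO cells the estimate was no smaller, at 0.51, but missed the threshold (SE 0.114, limma adjusted p = 0.0644, range over the alternatives 0.0149 to 0.294), and passed it without DKO untreated replicate 3 (0.63, limma adjusted p = 0.0149). The difference between the responses was 0.06 (95% interval −0.29 to 0.41, limma adjusted p = 0.900), so the data do not separate them. A call in 1 genotype and none in the other is therefore no evidence of a difference here. *Isg15*, *Trim21* and *Trim25* are named in the heatmap of IFNγ response genes that the study drew from these libraries, so their rise is not independent evidence.

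*Usp18*, the protease that removes ISG15 and also dampens signaling at the interferon receptor, was barely detected (chr6:121245906-121270917, plus strand). It stood at 0.996, 0.350 and 0.584 TPM in NTC untreated, 0.983, 0.880 and 0.751 TPM in NTC IFNγ, 0.987, 0.682 and 0.687 TPM in DKO untreated, and 1.28, 0.905 and 1.02 TPM in DKO IFNγ. The first replicate was the highest of each group, and treated and untreated libraries overlapped in both genotypes. With no filter on low values, its log2 fold change was 0.20 in NTC cells (limma adjusted p = 0.390) and 0.21 in DKO cells (limma adjusted p = 0.717), neither past the threshold. The protease was therefore at the bottom of the order of levels in all 4 groups, with means between 0.643 and 1.07 TPM.

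Set side by side, 7 of 7 tested members passed the threshold for the IFNγ response in NTC cells, all upward, where 12.1% of all tested genes passed in either direction. Their median log2 fold change was 0.49 against 0.02 over all tested genes. In DKO cells 3 of 7 passed, all upward, where 0.780% of all tested genes did, and the median was 0.51 against 0.01. The members were chosen with earlier results of these data known, most of them as interferon-induced genes. Their excess over all tested genes is therefore not independent evidence. The number of calls in the 2 genotypes is no measure of the difference in response, since the same threshold called 1411 genes in NTC and 91 genes in DKO cells. When that difference was tested by limma, 0 of 7 members passed, where 0.0343% of all tested genes did. At an unadjusted p under 0.05 there was 1 member, *Isg15*, and 1340 of 11663 genes. The estimate was negative for 6 of 7 members, with a median of −0.09 against −0.01 over all genes, and positive for *Trim21*, although that of *Trim25* turned to 0.01 without the library factor.

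The count of 7 in NTC cells fell to 4 without NTC IFNγ replicate 3, to 5 without NTC untreated replicate 1 or 2, and to 4 with the trend with GC content and length taken out and a replicate block added. The 1411 genes called in NTC cells fell further, to 394 and 351 without NTC untreated replicate 2 or 3 and to 328 and 317 without NTC IFNγ replicate 2 or 3, and the background share of 12.1% moves with them. *Isg15*, *Uba7*, *Ube2l6* and *Trim25* passed under all 22 alternatives.

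In order of level (mean TPM) under IFNγ, *Ube2l3* was followed by *Ube2l6*, *Herc6* and *Isg15* in both genotypes, and then by *Trim25*, *Trim21* and *Uba7*, whose means lay between 4.07 and 5.41 TPM. The libraries of *Ube2l6* and *Herc6* overlapped in treated DKO cells and not in treated NTC cells. In treated NTC cells the libraries of the last 3 overlapped and their order is not resolved. In treated DKO cells *Trim25* lay above *Uba7* without overlap, while *Trim21* overlapped both. In untreated cells *Herc6* stood above *Ube2l6*. *Ube2l6* and *Isg15* overlapped in untreated DKO cells, where both read 6.07 TPM in replicate 1, but not in untreated NTC cells.

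Between genotypes the members did not move as a group. Without IFNγ, 2 of 7 passed (*Isg15* higher and *Ube2l6* lower in DKO cells), where 36.4% of all tested genes passed. With IFNγ, 2 of 7 passed (*Ube2l6* and *Ube2l3*, both lower), where 43.3% of all tested genes did. These directions depend on the scaling: at the same total or without the library factor, *Trim25* passed as higher under both treatments and *Ube2l3* did not pass, so that the calls were 2 higher and 1 lower without IFNγ and 1 higher and 1 lower with it. Under median-ratio scaling the calls were 1 higher and 1 lower without IFNγ and 2 lower with it, as in the deposited values. Shares this close to or under the background are not a result about the members. Medians of 0.00 and −0.01 were near those of all genes, −0.01 in both comparisons. These comparisons share libraries with the responses and are not independent of them.

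Some regulators that act before the pathway rose under the same treatment. STAT2 and IRF9 act in interferon signaling, and IRF1 is a transcription factor induced by IFNγ. Like *Isg15*, *Irf1* rose in both genotypes and was higher in untreated DKO than in untreated NTC cells. The treated groups overlapped for *Isg15* but not for *Irf1*. *Irf1* stood at 8.24, 8.19 and 8.20 TPM in NTC untreated, 19.6, 18.5 and 19.7 TPM in NTC IFNγ, 13.4, 13.0 and 10.7 TPM in DKO untreated, and 24.3, 24.8 and 24.3 TPM in DKO IFNγ. It rose by 1.14 in NTC cells (limma adjusted p = 2.10e-07) and by 0.93 in DKO cells (limma adjusted p = 2.20e-06). All DKO libraries were above the NTC libraries with the same treatment, by log2 differences of 0.53 without IFNγ (limma adjusted p = 7.83e-05) and 0.33 with it (limma adjusted p = 0.00235). *Irf9* rose by 1.29 in NTC cells (limma adjusted p = 1.59e-07) and by 0.96 in DKO cells (limma adjusted p = 5.43e-06), and was higher in untreated DKO than in untreated NTC cells by 0.26 (limma adjusted p = 0.0197), a call lost without NTC untreated replicate 1 (0.0848) or DKO untreated replicate 2 (0.0788). *Stat2* rose by 0.36 in NTC cells (limma adjusted p = 0.0309), a call lost under 8 of 22 alternatives with adjusted p of up to 0.0853, among them the fits without any 1 of the 6 NTC libraries. In DKO cells the *Stat2* estimate was 0.22 and missed the threshold (limma adjusted p = 0.473). The differences between the responses were −0.20 for *Irf1* (limma adjusted p = 0.451), −0.34 for *Irf9* (limma adjusted p = 0.377) and −0.14 for *Stat2* (limma adjusted p = 0.698), none past the threshold.

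Among 15 further genes tied to ISG15, 14 were tested and *Usp13* was listed at 0. The list holds enzymes that can also carry or remove ISG15, its substrates and the parts of interferon receptor signaling. For the response in NTC cells 3 rose and 0 fell, with a median of 0.14, where 12.1% of all tested genes passed. The 3 calls fell to 1 without replicate 2 or 3 of either NTC group and became 5 without DKO IFNγ replicate 2. *Ddx58*, which encodes RIG-I, was at 1.88 to 2.43 TPM in untreated and at 5.76 to 6.65 TPM in treated NTC libraries, and rose by 1.15 (limma adjusted p = 2.14e-06). The others were *Stat2* and *Usp14*, a proteasome-bound protease (0.26, limma adjusted p = 0.0244, lost under 8 of 22 alternatives with adjusted p of up to 0.108, among them the fits without any 1 of the NTC libraries except NTC IFNγ replicate 1). In DKO cells only *Ddx58* passed (0.89, limma adjusted p = 4.79e-05), where 0.780% of all tested genes did, with a median of 0.02 for the list.

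In untreated cells 6 of those 14 genes were higher and 3 lower in DKO, where 36.4% of all tested genes passed, and these 9 calls fell to 6 without NTC untreated replicate 1. They were led by *Usp2* (0.72, limma adjusted p = 7.83e-05), *Ddx58* (0.46, limma adjusted p = 0.00121), *Usp14* (0.34, limma adjusted p = 0.00104) and *Ifnar2*, a subunit of the type I interferon receptor (−0.34, limma adjusted p = 0.00662). With IFNγ 2 were higher and 2 lower, where 43.3% of all tested genes passed, and the 4 calls became 7 at the same total or without the library factor: *Ifnar2* by −0.51 (limma adjusted p = 0.000342), *Usp2* by 0.48 (limma adjusted p = 0.00142), the antiviral gene *Zc3hav1* by −0.31 (limma adjusted p = 0.000602) and *Usp5* by 0.17 (limma adjusted p = 0.00917). The last was lost with the trend with GC content and length taken out, with and without a block (limma adjusted p = 0.124 and 0.135).

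*Uba7* was set against the 9 E1 enzymes of ubiquitin and other modifiers, all tested. In NTC cells 1 rose, *Uba6*, an E1 of ubiquitin (0.34, limma adjusted p = 0.0140, lost under 3 of 22 alternatives with adjusted p of up to 0.125, among them the fit without NTC IFNγ replicate 3, at 0.0528), and 0 fell, where 12.1% of all tested genes passed, with a median of 0.11. The count of 1 became 3 without DKO IFNγ replicate 2. In DKO cells limma called 0 of 9 (1 at an unadjusted p under 0.05), where 0.780% of all tested genes passed, with a median of 0.04. Untreated DKO cells had 4 higher and 1 lower than NTC cells, and treated ones 2 higher and 2 lower, where 36.4% and 43.3% of all tested genes passed. The 5 untreated E1 calls fell to 2 without NTC untreated replicate 1 and to 3 without any other 1 of the untreated libraries, and the 4 treated ones to 2 without DKO IFNγ replicate 1. *Nae1*, a subunit of the NEDD8 E1 (0.24, limma adjusted p = 0.0444 without IFNγ), was lost under 10 of 22 alternatives with adjusted p of up to 0.138, and *Atg7*, the E1 of autophagy (0.16, limma adjusted p = 0.0453 with IFNγ), under 13 of 22 with adjusted p of up to 0.234. The NEDD8-activating subunit *Uba3* was lower in both, by −0.21 (limma adjusted p = 0.0245, lost at the same total and without NTC or DKO untreated replicate 1 or 3, with adjusted p of up to 0.110) and −0.34 (limma adjusted p = 0.00139). *Mocs3*, the E1 of URM1, was lower with IFNγ by −0.61 (limma adjusted p = 0.00204). The SUMO E1 subunit *Sae1* was higher in untreated DKO cells by 0.21 (limma adjusted p = 0.00122).

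*Isg15* was set against the 12 genes of ubiquitin and its other relatives, of which 11 were tested and *Ubd*, which encodes FAT10, was listed at 0. In NTC cells 3 rose and 2 fell, where 12.1% of all tested genes passed, with a median of 0.03. These 5 calls of the modifier genes fell to 0 without replicate 2 or 3 of either NTC group, and to 2 with the trend with GC content and length taken out. The largest change was a fall of *Sumo2* by 0.84 on the log2 scale (limma adjusted p = 0.0461). It was lost under 12 of 22 alternatives, with adjusted p of up to 0.158, among them the fits without replicate 2 or 3 of either NTC group, DKO untreated replicate 3 or DKO IFNγ replicate 1. In DKO cells limma called 0 of 11 (1 at an unadjusted p under 0.05), where 0.780% of all tested genes passed, with a median of 0.00. *Ufm1*, which encodes a further modifier, was lower in treated DKO than in treated NTC cells by −0.44 (limma adjusted p = 0.000310). Of the 11, the untreated DKO cells had 1 higher and 1 lower (5 calls at the same total or without the library factor), and the treated DKO cells 1 higher and 3 lower, again against 36.4% and 43.3% of all tested genes.

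Within the E2 genes, those named Ube2 with a further letter or number, 32 of 38 were tested. For the response in NTC cells 4 rose and 1 fell, where 12.1% of all tested genes passed, and in DKO cells 1 rose, where 0.780% passed, with medians of 0.11 and −0.01. The 5 NTC calls of the E2 genes fell to 1 without NTC IFNγ replicate 3, to 2 without NTC IFNγ replicate 2 or NTC untreated replicate 2 or 3, to 3 without NTC untreated replicate 1, DKO untreated replicate 3 or DKO IFNγ replicate 1, and to 3 with the trend with GC content and length taken out. *Ube2l6* ranked first of 32 in both genotypes, and the highest gene other than the members was *Ube2v1* at 0.24 in NTC cells and *Ube2cbp* at 0.09 in DKO cells, neither past the threshold. *Ube2l3* had rank 3 in NTC and rank 2 in DKO cells, though in DKO cells its estimate did not pass. The other rises past the threshold were *Ube2d2a* (0.18, limma adjusted p = 0.0387) and *Ube2d3* (0.17, limma adjusted p = 0.0191), whose calls were lost under 14 and 7 of 22 alternatives, with adjusted p of up to 0.515 and 0.518. With the trend with GC content and length taken out their estimates shrank to 0.06 and 0.04 (limma adjusted p = 0.515 and 0.492). Both were also lost without replicate 2 or 3 of either NTC group, and *Ube2d2a* in addition without NTC untreated replicate 1, DKO untreated replicate 3 or DKO IFNγ replicate 1. Against NTC, the untreated DKO cells had 4 higher and 6 lower, and the treated DKO cells 2 higher and 10 lower, where 36.4% and 43.3% of all tested genes passed. These included *Ube2w* (−0.54 and −0.66) and *Ube2c*, an E2 of the anaphase-promoting complex (−0.46 and −0.48), each with a limma adjusted p of at most 0.00127.

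**Figure D4:**
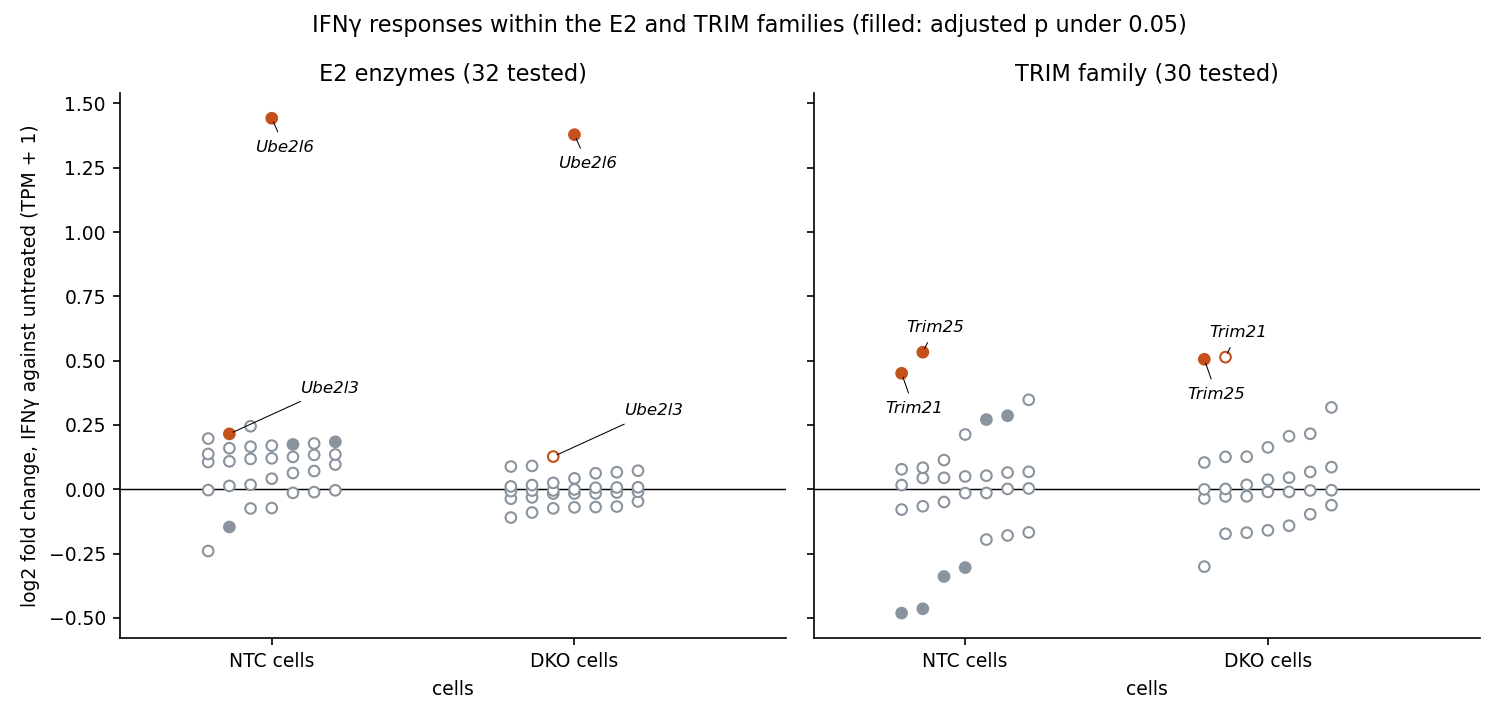
Log2 fold change of TPM + 1 for IFNγ against untreated cells (vertical axis) of all tested E2 genes (left, 32) and TRIM genes (right, 30) in NTC and DKO cells, with members in orange and filled points past a limma adjusted p of 0.05. *Ube2l6* stands far above the other E2 genes in both genotypes. *Trim25* and *Trim21* are the highest of the 30 tested TRIM genes on this scale, which understates the change of genes near or below 1 TPM. The sideways spread of the points carries no value.

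In the TRIM family 30 of 68 rows were tested, the others not reaching 1 TPM in 3 libraries. In NTC cells 4 rose and 4 fell, where 12.1% of all tested genes passed, and in DKO cells 1 rose and 0 fell, where 0.780% passed, with medians of 0.03 and 0.00. The 8 NTC calls of the TRIM family fell to 2 without NTC untreated replicate 3 or NTC IFNγ replicate 2 or 3, to 3 and 5 without NTC untreated replicate 2 or 1, and to 2 with the trend with GC content and length taken out (1 with a block added). The DKO call was lost without DKO untreated replicate 2 or DKO IFNγ replicate 3, and a further one was gained without DKO untreated replicate 3. On the log2(TPM + 1) scale *Trim25* and *Trim21* ranked first and second of the 30 in NTC cells and second and first in DKO cells. The highest other gene was *Trim12a*, at 0.35 and 0.32. It averaged 0.673 TPM, where this scale understates a change, so the ranking need not hold for ratios of levels. The falls in NTC cells were led by *Trim62* (−0.48, limma adjusted p = 0.00997) and *Trim46* (−0.46, limma adjusted p = 0.0149), lost under 2 and 5 of 22 alternatives with adjusted p of up to 0.0861 and 0.165. *Trim46* was lost, among others, without NTC untreated replicate 3 or NTC IFNγ replicate 2 or 3. Without IFNγ 5 were higher and 5 lower in DKO than in NTC cells, with *Trim46* at −0.98 (limma adjusted p = 7.19e-06) and *Trim44* at −0.50 (limma adjusted p = 1.01e-05). With IFNγ 7 were higher, among them *Trim8* at 0.50 (limma adjusted p = 0.000163), and 10 were lower. Of all tested genes 36.4% and 43.3% passed in these comparisons, and the 10 TRIM calls without IFNγ fell to 6 without DKO untreated replicate 2.

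The 5 HERC genes were all tested, and *Herc6* was the only one past the threshold for the response in NTC cells, while limma called 0 of 5 in DKO cells (1 at an unadjusted p under 0.05). Of all tested genes 12.1% and 0.780% passed. Medians were 0.10 and 0.07. Of the others, *Herc3*, whose level averaged 9.06 TPM in untreated NTC and 14.6 TPM in untreated DKO cells, was higher in DKO cells by 0.63 without IFNγ (limma adjusted p = 0.000102) and by 0.42 with it (limma adjusted p = 0.00178). *Herc4* was higher as well, by 0.28 (limma adjusted p = 0.00426) and 0.20 (limma adjusted p = 0.0234, lost with only the treated libraries fitted and without replicate 1 or 2 of NTC IFNγ or 1 or 3 of DKO IFNγ, with adjusted p of up to 0.110). In all, 2 of 5 were higher without IFNγ and 3 of 5 with it, the other being *Herc1* (0.16), and 0 were lower, where 36.4% and 43.3% of all tested genes passed. The 3 treated calls of the HERC family became at most 2 whichever of the 12 libraries was left out, and 1 without NTC IFNγ replicate 1 or DKO IFNγ replicate 3. *Herc1* passed narrowly (limma adjusted p = 0.0434) and was lost under 11 of 22 alternatives, with adjusted p of up to 0.149, among them the fits without any 1 of 10 libraries.

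For the lists as for the members, more calls in NTC than in DKO cells do not show a weaker response. The difference between the responses was called by limma for 0 of the 14 further ISG15 genes, 9 E1 genes, 11 modifier genes, 32 E2 genes, 30 TRIM genes and 5 HERC genes. Of all tested genes 0.0343% were called. At an unadjusted p under 0.05 there were 1, 3, 4, 5, 3 and 0 of the listed genes, against 1340 of all 11663.

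The genes most like a member were found from the 4 group means of log2(TPM + 1), each gene's own mean removed, among 11656 tested genes other than the members. The measure was the root-mean-square difference between these profiles, which is small for any pair of genes that change little. Nearest to *Isg15* were *Ifih1*, which encodes the RNA sensor MDA5 (0.0712), *Ddx58* (0.0725) and *Irf1* (0.0926). *Ifih1* averaged 1.71 and 5.13 TPM in untreated and treated NTC cells and 2.64 and 5.72 TPM in DKO cells. Nearest to *Ube2l6* were *Zbp1*, a sensor of Z-form nucleic acid (0.0971), and the guanylate-binding protein gene *Gbp6* (0.130). In untreated and treated NTC cells and then in untreated and treated DKO cells, *Zbp1* averaged 0.239, 2.96, 0.170 and 1.93 TPM and *Gbp6* 0.235, 2.06, 0.159 and 1.63 TPM.

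For *Trim25* the nearest genes were *Mov10*, an RNA helicase gene (0.0293), *Tapbpl*, which encodes the peptide editor TAPBPR (0.0390), and *Ncmap* (0.0698). For *Uba7* they were *Cyp4v3* (0.0156), *Itm2b* (0.0166) and *Gm12216* (0.0261), and for *Ube2l3* *Irak1bp1* (0.00718), *C1galt1* (0.00886) and *Ppm1b* (0.0110).

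**Figure D5:**
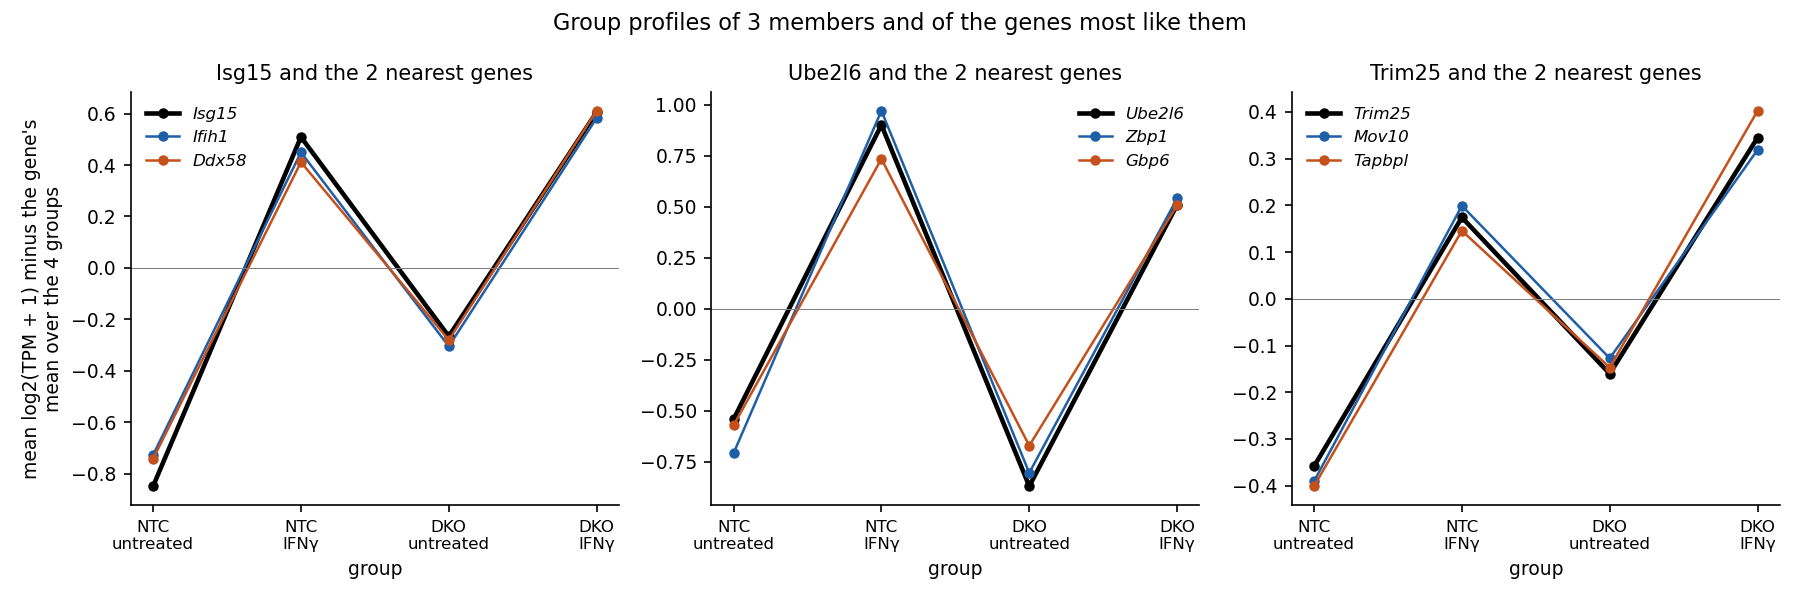
Mean log2(TPM + 1) in each of the 4 groups minus the gene's mean over the groups (vertical axis) for *Isg15*, *Ube2l6* and *Trim25* (black) and the 2 genes nearest to each (colors), with lines that join the groups of a gene only to guide the eye. In untreated cells *Isg15* is higher and *Ube2l6* lower in DKO than in NTC cells.

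Some values carry reads that other genes could share, since the libraries were unstranded and some transcripts are near-identical, and reads from these stretches cannot be told apart. In GENCODE M21, exons of *Ube2l3* overlap 1670 bases of *Ydjc* on the opposite strand, which averaged 2.09 TPM, and those of *Usp18* overlap 124 bases of the noncoding *Gm44148*. *Herc6* shares 1269 exonic bases with *Gm45193* and *Uba7* 233 with *Gm20661*, both on its own strand. Transcripts elsewhere that match a member over at least 200 bases at 95% identity or more were found for *Isg15* (1), *Trim21* (1), *Ube2l6* (2) and *Ube2l3* (4). Of these only *Ift46*, alike to *Ube2l6* over 260 bases, is listed in the matrix, at a mean of 55.6 TPM.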

How the data were processed

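RNA-seq values of 12 libraries, 3 in each of 4 groups, were used as deposited. The deposited values are TPM that the authors made with RSEM, although the matrix is titled as counts. How the library factor arose is not stated, and since TPM do not hold read depth, the spread of the libraries is the only measure of precision. The 8 members and all gene lists were chosen with earlier results of these data known.

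The package limma 3.58.1 (R 4.3.3) fitted log2(TPM + 1) with 1 mean per group and a prior variance that follows expression, for 5 comparisons: IFNγ against none in each genotype, how far both responses differ, and DKO against NTC under each treatment. Genes that did not reach 1 TPM in 3 libraries were left out. The fit was tested on simulated data. The ratio of the E2 transcripts was compared by exact permutation. Named were the members, the targeted genes, up to 4 called genes per list with the largest changes, and up to 3 nearest profiles. *Herc1* was named after its values were seen. Alternatives were a pseudocount of 0.1, no filter, a replicate block, only the libraries compared, the same total, median-ratio scaling, a prior variance without trend and each library left out. Added after the data were seen were the library factor removed and the trend with GC content and length (GENCODE M21, 99.1% of tested genes) taken out, the latter also with a block. Promoters came from RefSeq on GRCm38.p6. Tables and figures were made with Python 3.11.15.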

Additional observations from a re-analysis of the deposited data

How the results depend on the processing

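Over the members, 702 pairs of a result and an alternative kept direction and side of the threshold, 27 lost a call, 8 gained one and 26 turned direction in results that passed the threshold neither as deposited nor where they turned. The *Isg15* and *Ube2l6* responses in both genotypes, the NTC responses of *Uba7* and *Trim25*, the untreated *Isg15* difference and the treated *Ube2l6* difference passed under all 22 alternatives. For the named list genes 1293 pairs held and 137 lost a call, and for the targeted genes 88 held.

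With no filter 897 genes passed for the NTC response and 10 for the difference between responses. Without a variance trend 737 passed for the NTC response. With the GC content and length trend taken out it was 513 genes, and with a replicate block added 421 genes and 4 members, with 1 member for DKO against NTC with IFNγ. The block alone left 2 genes for the difference between responses, and fitting only the untreated libraries left 1 member. The same total put 525 of 1164 NTC calls upward, the factor removed 527 of 1152 and median-ratio scaling 572 of 1244, against 853 of 1411. For DKO against NTC, the same total put 2655 of 4377 calls upward without IFNγ and 3283 of 5029 with it, and the factor removed 2606 of 4353 and 3290 of 5029, against 1982 of 4247 and 2271 of 5053. Median-ratio scaling put 2114 of 4266 calls upward without IFNγ and 2472 of 4990 with it. The causes were not tested.

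Direction turned for *Uba7* without IFNγ (−0.020 with the GC content and length trend taken out, with or without the block), for *Trim21* with IFNγ (0.058 at the same total, 0.0031 under median-ratio scaling, 0.059 with the factor removed, 0.068 with the GC content and length trend taken out, with or without the block) and for the *Trim25* difference between responses (0.0060 at the same total and 0.0081 with the factor removed).

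Leaving out 1 library at a time gave 4 to 7 members and 317 to 2023 genes for the NTC response, 0 to 7 genes for the difference between responses and 1 to 2 members for DKO against NTC without IFNγ. A group left with 2 libraries is assumed to vary like the others. Estimates with IFNγ ran from −0.050 to 0.20 for *Isg15*, −0.073 to 0.11 for *Herc6* and −0.097 to 0.057 for *Trim21*. Those without IFNγ ran from −0.056 to 0.049 for *Uba7* and −0.20 to 0.035 for *Trim21*. Differences between responses ran from −0.15 to 0.036 for *Ube2l6*, −0.048 to 0.18 for *Trim21* and −0.090 to 0.020 for *Trim25*.

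Over all tested genes no sign was found that replicate numbers pair the libraries: residuals of 4 of 18 same-number pairs correlated above 0.1, and of 9 of 36 other pairs. This cannot show whether libraries of the same number shared a culture or batch. The replicate block alone left 7, 3, 0, 2 and 2 members called by limma in the 5 comparisons, with 0 for the difference between responses. In the same fits 1118, 75, 2, 4063 and 4899 of 11663 genes were called. The counts of 2 between genotypes are therefore not a result about the members.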
